A study of Mus musculus with 12 samples.

Results

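The insulin-like growth factor (IGF) axis in these embryonic ventricles was represented by 8 genes: the ligand gene Igf1, the receptor gene Igf1r and the binding protein genes Igfbp2, Igfbp3, Igfbp4, Igfbp5, Igfbp6 and Igfbp7. They were chosen by name, with earlier results of these data known, and all 8 were found among the 18194 genes of the array. Of the 45101 probe sets, 24 named one of these genes and no other, and each gene is described by its brightest set on average, with its other sets given beside it. Expression was compared between wild-type embryos of the outbred strain CD1 (WT) and Nos3-/- embryos of strain B6.129P2-Nos3tm1unc/J (KO), in which the gene for endothelial nitric oxide synthase is disrupted. Embryos were taken on embryonic day 14.5, and left ventricle (LV) and right ventricle (RV) were dissected from each genotype. The 4 groups had 3 arrays each, and every array was made from a pool of 15 to 30 embryos, so p-values measure the spread between pools. KO and WT differ in strain background as well as in Nos3, and the effects of the deletion and of the background cannot be told apart. The Nos3 allele is a germline one, so all cells of a KO embryo carried it.

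IGF ligands bind a receptor tyrosine kinase, encoded by Igf1r, that signals to growth and survival through insulin receptor substrates, PI3-kinase and Akt. Binding proteins hold most IGF outside cells, and they can lower or prolong its action at the receptor. In the embryonic heart, IGF signalling is known for promoting the proliferation of ventricular cardiomyocytes. IGFBP-7 differs from the rest in binding IGF weakly.

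The 250 bases before the RefSeq start (GRCm38.p6) are shown for Igfbp2, which differed between ventricles, for Igfbp3, which differed between genotypes in both, and for Igfbp5, the neighbour of Igfbp2 with another pattern. Igfbp2 and Igfbp5 are neighbouring protein-coding genes on chromosome 1, on opposite strands, and Igfbp3 lies next to Igfbp1 on chromosome 11. Capitals mark the GC box letters GGGCGG. Windows are chr1:72824230-72824479 on the plus strand for Igfbp2, chr11:7213924-7214173 on the minus strand for Igfbp3 and chr1:72874866-72875115 on the minus strand for Igfbp5.
Igfbp2: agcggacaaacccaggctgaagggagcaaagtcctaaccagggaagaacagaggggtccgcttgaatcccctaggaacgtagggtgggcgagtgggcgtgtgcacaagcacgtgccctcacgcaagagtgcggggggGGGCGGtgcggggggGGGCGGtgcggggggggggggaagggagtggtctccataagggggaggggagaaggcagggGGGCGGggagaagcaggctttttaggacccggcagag
Igfbp3: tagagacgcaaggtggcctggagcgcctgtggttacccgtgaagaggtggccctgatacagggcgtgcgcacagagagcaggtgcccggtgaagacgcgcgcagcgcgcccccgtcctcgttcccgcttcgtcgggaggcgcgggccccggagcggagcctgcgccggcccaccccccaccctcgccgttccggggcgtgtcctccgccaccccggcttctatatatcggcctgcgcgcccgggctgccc
Igfbp5: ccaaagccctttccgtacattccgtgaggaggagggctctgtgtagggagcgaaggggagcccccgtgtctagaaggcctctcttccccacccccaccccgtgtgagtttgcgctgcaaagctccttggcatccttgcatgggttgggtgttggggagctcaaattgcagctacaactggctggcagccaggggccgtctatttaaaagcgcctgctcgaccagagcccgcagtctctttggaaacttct
The Igfbp2 window held 3 GC boxes, 113, 98 and 37 bases before the start, and its GC content was 67.2%. A second RefSeq window of Igfbp2 held none. The Igfbp3 window (73.2% GC) and the Igfbp5 window (58.8% GC) held none of the 4 motifs searched on both strands, which were the TATA box letters TATAAA, the GC box letters, the CCAAT box and the forkhead core TGTTTAC. Over 32851 mouse promoter windows of the same length, 32.7% held a GC box, 12.4% a TATA box, 33.8% a CCAAT box and 3.17% a forkhead core. Among the other 5 genes, the windows of Igf1r and Igfbp7 also held GC boxes, and those of Igfbp4 and Igfbp6 held TATAAA.

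The values are log2 levels. Pairs of arrays correlated at 0.970 to 0.997, and all 7 fixed cardiomyocyte markers were bright in every array, with a mean of 12.95 to 13.48. Nos3 differed by -0.41 in the left ventricle (limma, adjusted p = 0.0376) and by -0.66 in the right (limma, adjusted p = 0.00983). Signal remained in KO, at 7.94 ± 0.08 on the left and 8.01 ± 0.23 on the right (SD, n = 3), and which part of the transcript the probe set covers was not checked. The 24 probe sets of the poly-A control RNAs, which are added to samples before labelling, stood at a mean of 8.89 to 8.96 on the 3 WT left arrays and WT right replicate 3. They stood at 7.35 to 8.47 on the other 8 arrays. The high arrays therefore comprise the whole WT left group and 1 right array, and no KO array, so this level moves with genotype in the left ventricle. A fit with this level as a term, entered only as high for those 4 arrays or low for the other 8, is given beside the results it changes. So are fits without WT right replicate 3.

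In the left ventricle, 4 of the 8 genes rose in KO and none fell: Igf1, Igf1r, Igfbp3 and Igfbp5. Over all genes, 18.6% rose and 12.3% fell in the same comparison (limma, adjusted p under 0.05 over 18194 genes). In the right ventricle, 2 of the 8 rose, Igfbp2 and Igfbp3, where 4.61% of all genes rose and 3.58% fell. In either direction, 30.9% of all genes passed on the left and 8.19% on the right. Igfbp3 passed the test in the same direction in both ventricles, as did 6.24% of all genes. The median difference of the 8 genes was 0.49 in the left ventricle and 0.39 in the right, and that of all genes was -0.01 and -0.04.

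**Figure D1:**
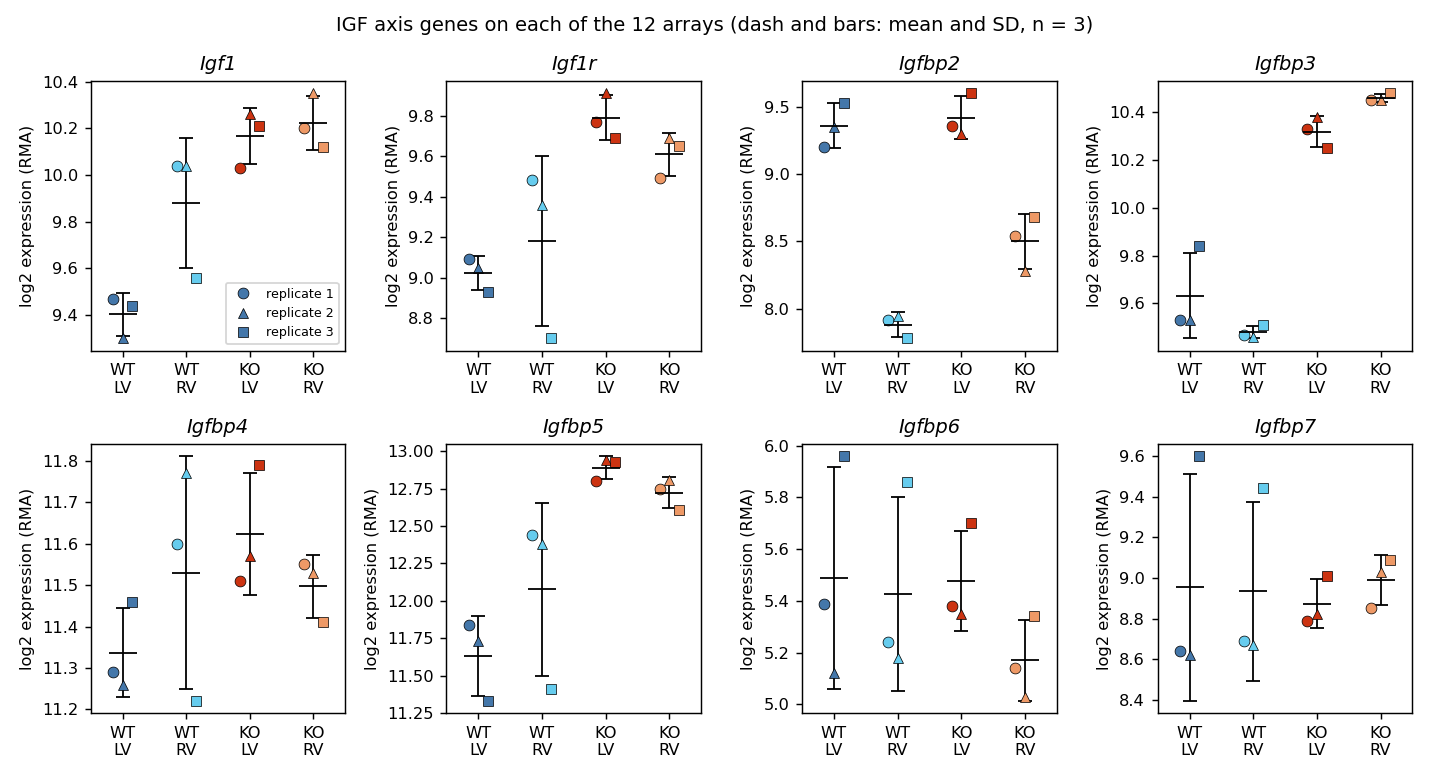
Log2 expression (vertical axes, a scale of its own for each gene) of the 8 genes in the 4 groups, with 1 point per array, shaped by replicate, and a dash and bars for the mean and SD (n = 3). Igfbp3 separates the genotypes in both ventricles, Igfbp2 is lowest in the WT right ventricle, and WT right replicate 3 lies apart from its group for Igf1r (8.70) and Igfbp5 (11.41).

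Igf1 encodes the secreted ligand. Its level in the WT left ventricle was 9.47, 9.30 and 9.44 on the 3 arrays, and in the KO left ventricle 10.03, 10.26 and 10.21. The right ventricle gave 10.04, 10.04 and 9.56 for WT and 10.20, 10.35 and 10.12 for KO. The WT left arrays were thus the lowest of all, and the groups overlapped in neither ventricle. In the left ventricle KO exceeded WT by 0.76 (SE 0.13, 95% interval 0.49 to 1.03), a 1.70-fold difference (limma, adjusted p = 0.000770). The right ventricle difference was 0.34 (0.07 to 0.61) and did not pass (limma, adjusted p = 0.108). It was 0.18 without WT right replicate 3 (limma, adjusted p = 0.335). In bulk RNA, fewer cells of a type and less RNA per cell cannot be told apart, here and in what follows.

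Igf1r encodes the receptor through which both IGF ligands signal. Its levels were 9.09, 9.05 and 8.93 in the WT left ventricle against 9.77, 9.91 and 9.69 in the KO left ventricle. Right ventricle levels were 9.48, 9.36 and 8.70 for WT and 9.49, 9.69 and 9.65 for KO. The left groups stood well apart, whereas the right groups nearly touched, and the lowest array of all was WT right replicate 3. The left difference was 0.77 (SE 0.16, 95% interval 0.43 to 1.11), or 1.70-fold (limma, adjusted p = 0.00286). The right difference was 0.43 (0.09 to 0.77; limma, adjusted p = 0.108). Without WT right replicate 3 that difference was 0.19 (limma, adjusted p = 0.306), and without WT right replicate 1 it was 0.58 and passed (limma, adjusted p = 0.0364). Over all genes, 5.31% passed on the right without replicate 3 and 9.96% without replicate 1.

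Igfbp5, an IGF binding protein gene whose product also binds extracellular matrix, had the largest left ventricle difference of the 8. The WT left arrays read 11.84, 11.73 and 11.33 and the KO left arrays 12.80, 12.94 and 12.93. The right arrays read 12.44, 12.38 and 11.41 for WT and 12.75, 12.81 and 12.61 for KO. Every KO array was above every WT array in both ventricles, and WT right replicate 3 lay within the range of the WT left arrays. KO exceeded WT in the left ventricle by 1.26 (SE 0.21, 95% interval 0.80 to 1.72), a 2.39-fold difference (limma, adjusted p = 0.000925). On the right the difference was 0.65 (0.19 to 1.11; limma, adjusted p = 0.0785). It was 0.31 without WT right replicate 3 (limma, adjusted p = 0.199) and 0.83 without WT right replicate 1, where it passed (limma, adjusted p = 0.0342).

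Igfbp3 encodes the main IGF carrier of adult plasma and is also made locally by many tissues. It read 9.53, 9.53 and 9.84 in the WT left ventricle and 10.33, 10.38 and 10.25 in the KO left ventricle. On the right it read 9.47, 9.46 and 9.51 for WT and 10.45, 10.45 and 10.48 for KO. The genotypes did not overlap in either ventricle, and WT right replicate 3 lay only 0.045 above the mean of the other 2 arrays of its group. The left difference was 0.69 (SE 0.09, 95% interval 0.49 to 0.88), or 1.61-fold (limma, adjusted p = 0.000194). The right difference was 0.98 (SE 0.09, 0.78 to 1.18), or 1.97-fold (limma, adjusted p = 1.81e-05). The right ventricle call held in all 23 alternatives, from 0.81 to 1.02.

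The 4 left ventricle calls were lost when the poly-A level, as high or low, entered the fit. With that term the difference of Igf1 was 0.28 (limma, adjusted p = 0.516), of Igf1r 0.05 (0.942) and of Igfbp5 0.26 (0.682). For Igfbp3 it was 0.73 (limma, adjusted p = 0.0565), so the size remained while the call did not. With the term, 1.08% of all genes were called in the left ventricle in place of 30.9%. The part of the control level in the left ventricle differences was not tested further, since only WT right replicate 3 carries a high level outside the WT left group. The size of the term therefore rests on how that array differs from the rest of its group.

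**Figure D2:**
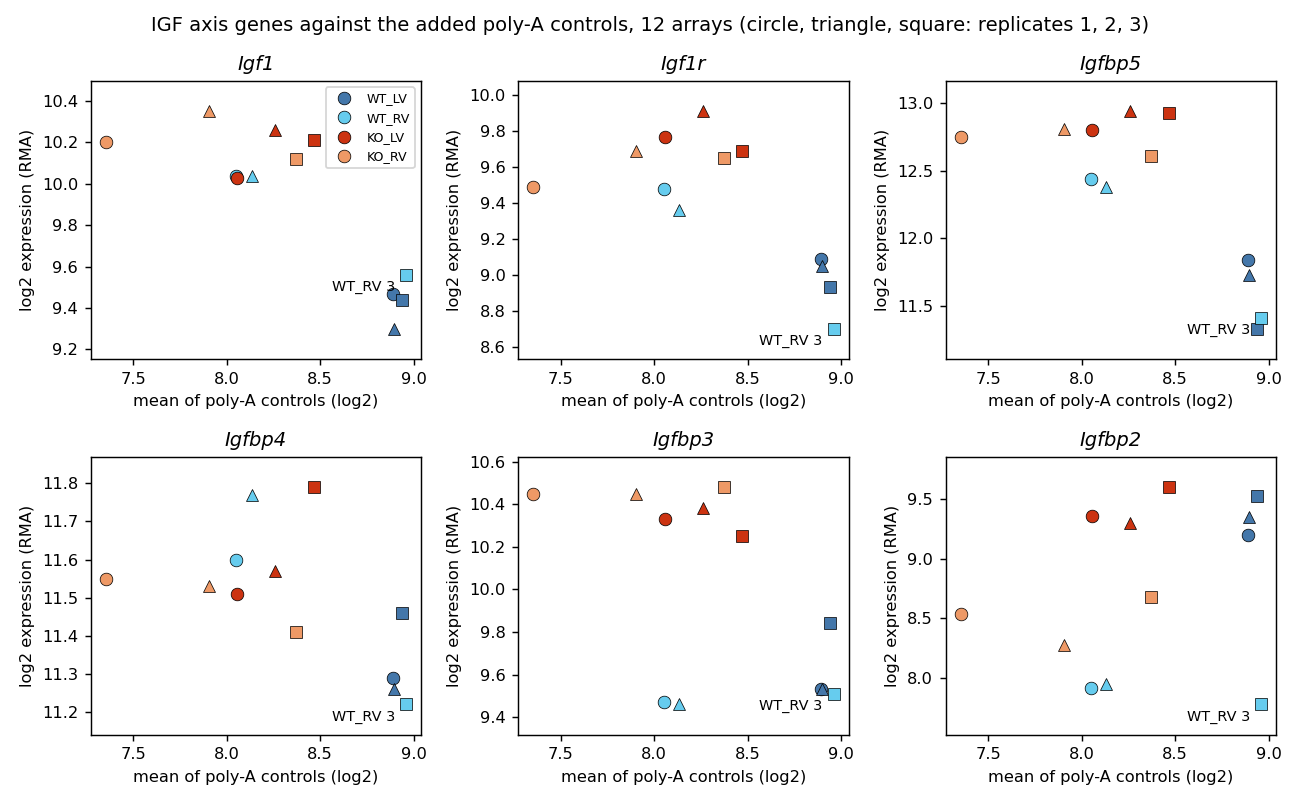
Log2 expression of Igf1, Igf1r, Igfbp5, Igfbp4, Igfbp3 and Igfbp2 on each of the 12 arrays (vertical axes) against the mean log2 level of the 24 poly-A control probe sets (horizontal axes), coloured by group and shaped by replicate. The 4 arrays with control levels of 8.89 to 8.96 are WT arrays with the lowest Igf1, Igf1r and Igfbp5, while Igfbp3 is low on all 6 WT arrays.

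Markers of other cell types also differed in the left ventricle, where 18.6% of all genes rose and 12.3% fell. Called markers are named here after their values were seen. Of 7 endothelial and endocardial markers 5 rose in KO and none fell (Cdh5, Tek, Tie1, Kdr and Npr3), with a mean level of 8.66 to 8.96 in the WT and 9.31 to 9.54 in the KO left arrays. Of 7 macrophage markers 5 rose and none fell (Csf1r, Ptprc, Adgre1, Cx3cr1 and C1qa), from 6.78 to 6.79 in WT to 7.32 to 7.52 in KO. Mesenchymal markers gave 2 rises (Col1a1 and Pdgfra) and 1 fall (Lum) of 7, and mural markers 4 rises (Acta2, Tagln, Cspg4 and Pdgfrb) and 2 falls (Rgs5 and Kcnj8) of 7. Cardiomyocyte markers gave 2 rises of 7 (Myh6 and Myh7) and epicardial markers 1 rise (Tbx18) and 1 fall (Tcf21) of 6. Liver markers gave 2 falls of 8 (Alb and Afp) and erythroid markers 1 fall (Alas2) of 5 measured. The liver mean was highest in WT right replicate 1 (8.855), next in WT left replicate 2 (7.76), and lowest in KO left replicate 2 (5.62). On the right Npr3, Csf1r, Ptprc, Myh6 and Tagln rose, and Tcf21, Kcnj8, Alas2, Slc4a1 and Klf1 fell, where 4.61% of all genes rose and 3.58% fell. The mural mean on the right was 9.10 to 9.22 in WT and 9.14 to 9.31 in KO, with Tagln at 2.22 and Kcnj8 at -0.79. The summed levels of the endothelial list ran from 3733 to 4129 in the WT left and from 5800 to 6442 in the KO left arrays on the linear scale, and those of the macrophage list from 1269 to 1291 and from 2281 to 2510. In WT right replicate 3, with its high poly-A level, the endothelial mean was 8.81, within the WT left range. In WT right replicates 1 and 2 it was 9.17 and 9.23. The macrophage mean was 6.73 to 6.92 in the WT right arrays. No marker of any list was at 0, and the lowest level, 3.87, was that of an erythroid gene in a KO left array. The part of cell composition in the 8 genes' differences was not tested.

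Igfbp2, an IGF binding protein gene that is prominent in fetal tissues, differed by chamber more than by genotype. It read 9.20, 9.35 and 9.53 in the WT left ventricle and 7.92, 7.95 and 7.78 in the WT right ventricle. In KO it read 9.36, 9.30 and 9.60 on the left and 8.54, 8.28 and 8.68 on the right. All left arrays exceeded all right arrays, and within the right ventricle all KO arrays exceeded all WT arrays, while the left genotypes overlapped. The WT left ventricle exceeded the right 2.78-fold, with a right minus left difference of -1.48 (SE 0.12, 95% interval -1.74 to -1.22; limma, adjusted p = 4.52e-05). In KO the difference was -0.92 (-1.18 to -0.66), a 1.89-fold excess on the left (limma, adjusted p = 0.00126). Igfbp2 was the only one of the 8 called between ventricles in either genotype, where 0.22% of all genes were lower and 0.764% higher on the right in WT, and 0.594% and 0.55% in KO. In either direction this was 0.984% of all genes in WT and 1.14% in KO.

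By genotype, Igfbp2 was 0.62 higher in the KO right ventricle (SE 0.12, 95% interval 0.36 to 0.88), or 1.53-fold (limma, adjusted p = 0.00718). In the left ventricle the genotypes differed by 0.06 (-0.20 to 0.32; limma, adjusted p = 0.749). The genotype difference was larger on the right than on the left by 0.56 (0.19 to 0.93), which did not pass over all genes (limma, adjusted p = 0.314). The 3 calls of Igfbp2 held in all 23 alternatives. With the poly-A level as a term, as without WT right replicate 3, the right genotype difference was 0.565 (limma, adjusted p = 0.0291). For this difference and for the chamber difference in KO, these fits are the same check, since the term absorbs that array. Of the marker lists, 1 of 6 epicardial markers, Tbx18, was lower on the right in each genotype, and the macrophage marker Csf1r was lower on the right in KO. The epicardial list had mean levels of 8.70 to 9.16 and 8.36 to 8.93 in WT left and right and of 8.61 to 8.96 and 8.37 to 8.69 in KO. Mesenchymal marker means were 11.04 to 11.40 and 10.84 to 11.21 in WT left and right, and 11.36 to 11.63 and 10.74 to 11.29 in KO, with no call between ventricles. The part of these cell types in the Igfbp2 difference was not tested.

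**Figure D3:**
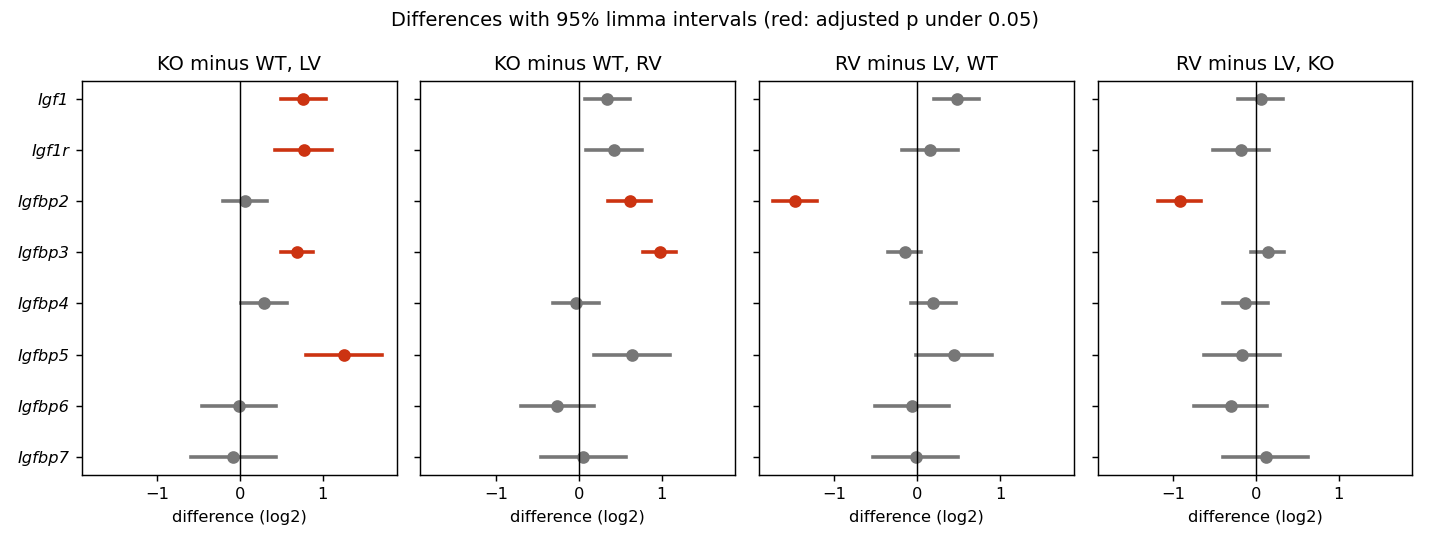
Difference of each of the 8 genes in log2 units (horizontal axes) with its 95% interval, for KO minus WT in each ventricle and for right minus left ventricle in each genotype, in red where the adjusted p was under 0.05. The left genotype panel has 4 red points, led by Igfbp5 at 1.26, and in the chamber panels only Igfbp2 is red, at -1.48 in WT and -0.92 in KO.

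The other 3 binding protein genes passed in none of the 4 comparisons between groups. Igfbp4, whose product is cleaved by the protease PAPP-A, read 11.29, 11.26 and 11.46 in the WT left and 11.51, 11.57 and 11.79 in the KO left ventricle. These groups did not overlap, and the difference of 0.29 (95% interval 0.01 to 0.56) did not pass (limma, adjusted p = 0.106). It passed without WT right replicate 3, an array of another group that enters through the shared spread (0.29; limma, adjusted p = 0.0351), where 34.7% of all genes were called. Its right arrays read 11.60, 11.77 and 11.22 for WT and 11.55, 11.53 and 11.41 for KO, which overlap.

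Igfbp6 encodes a binding protein with a preference for IGF-II. Its only probe set was dim, with a mean of 5.39 where the median of all values was 5.67. It ranged from 5.03 in KO right replicate 2 to 5.96 in WT left replicate 3, and the genotype difference was -0.01 on the left (95% interval -0.46 to 0.43) and -0.26 on the right (-0.70 to 0.19).

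Igfbp7 read 8.64, 8.62 and 9.60 in the WT left and 8.69, 8.67 and 9.44 in the WT right ventricle. The KO arrays read 8.79, 8.82 and 9.01 on the left and 8.85, 9.03 and 9.09 on the right. Replicate 3 was the highest array in each of the 4 groups, for Igfbp6 as for Igfbp7, by more in WT than in KO, and the genotypes overlapped. The difference was -0.08 on the left (95% interval -0.59 to 0.43; limma, adjusted p = 0.834) and 0.06 on the right (-0.46 to 0.57; limma, adjusted p = 0.905). These intervals are wide, and they do not show that Igfbp7 is equal in the genotypes.

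Without overlap between genotypes, by direction of the arrays alone, were 5 of the 8 genes in the left ventricle and 5 in the right. Over all genes the shares were 44.4% and 29.4%. In the left ventricle these were Igf1, Igf1r, Igfbp3, Igfbp4 and Igfbp5, and in the right Igf1, Igf1r, Igfbp2, Igfbp3 and Igfbp5. Between ventricles, 3 genes did not overlap in WT (15.7% of all genes) and 3 in KO (19.7%).

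Between WT ventricles, the calls of Igf1, Igf1r and Igfbp5 changed when WT right replicate 3 was left out, and that of Igfbp2 did not. This array lay below the mean of the other 2 arrays of its group by 0.48 for Igf1, 0.72 for Igf1r and 1.00 for Igfbp5, and above it by 0.65 for Igfbp6 and 0.76 for Igfbp7. With all arrays, right minus left in WT was 0.48 for Igf1 (limma, adjusted p = 0.0958), 0.16 for Igf1r (0.640) and 0.44 for Igfbp5 (0.312). Without that array these became 0.64 (limma, adjusted p = 0.00458), 0.40 (0.0290) and 0.78 (0.00616), all higher on the right and all called, while the share of all genes called went from 0.984% to 9.53%. That fit sets WT left arrays, all with the high poly-A level, against WT right arrays with the low one. Chamber and control level cannot be told apart in it. With the poly-A level as a term, which rests on WT right replicate 3, right minus left was 0.16 for Igf1, -0.32 for Igf1r and -0.22 for Igfbp5. None of these was called. In KO, right minus left was 0.06 for Igf1 (limma, adjusted p = 0.929), -0.18 for Igf1r (0.787) and -0.17 for Igfbp5 (0.861).

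The test of whether the genotype difference differed between ventricles passed for 0 of the 8 genes and for 0.022% of all genes (limma). At an unadjusted p under 0.05 the count was 3, made up of Igf1 (-0.42), Igfbp2 (0.56) and Igfbp3 (0.29), where 13.9% of all genes passed at that level. Without WT right replicate 3 it passed for Igf1 (-0.58; limma, adjusted p = 0.0320), Igf1r (-0.58; 0.0311) and Igfbp5 (-0.94; 0.0234), with 7.19% of all genes. Negative values mean a smaller genotype difference on the right. That array has a high poly-A level like the WT left arrays. With the poly-A level as a term, the interaction was -0.10 for Igf1, 0.14 for Igf1r and 0.057 for Igfbp5, and none of these was called. The part of that level was not tested further, since the term rests on the same array.

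The other probe sets of a gene did not always follow the one used. These were tested in a fit over all 45101 sets. All 4 Igf1 sets were higher in the KO left ventricle, by 0.15 to 0.83, and 2 of them passed, whereas 1 of the 4 was lower in the right ventricle, at -0.17. Of the 5 Igf1r sets, 4 rose in the left ventricle, by 0.54 to 0.83, and the dimmest read -0.55 and did not pass (limma, adjusted p = 0.125). Both Igfbp3 sets rose in both ventricles, the second by 0.54 on the left (limma, adjusted p = 0.00470) and 0.64 on the right (limma, adjusted p = 0.00513). The second Igfbp5 set, with a mean of 7.05, differed by 0.15 in each ventricle and did not pass (limma, adjusted p = 0.333 and 0.463). None of the 6 Igfbp4 or 3 Igfbp7 sets passed in either ventricle, and Igfbp2 and Igfbp6 had 1 set each.

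**Figure D4:**
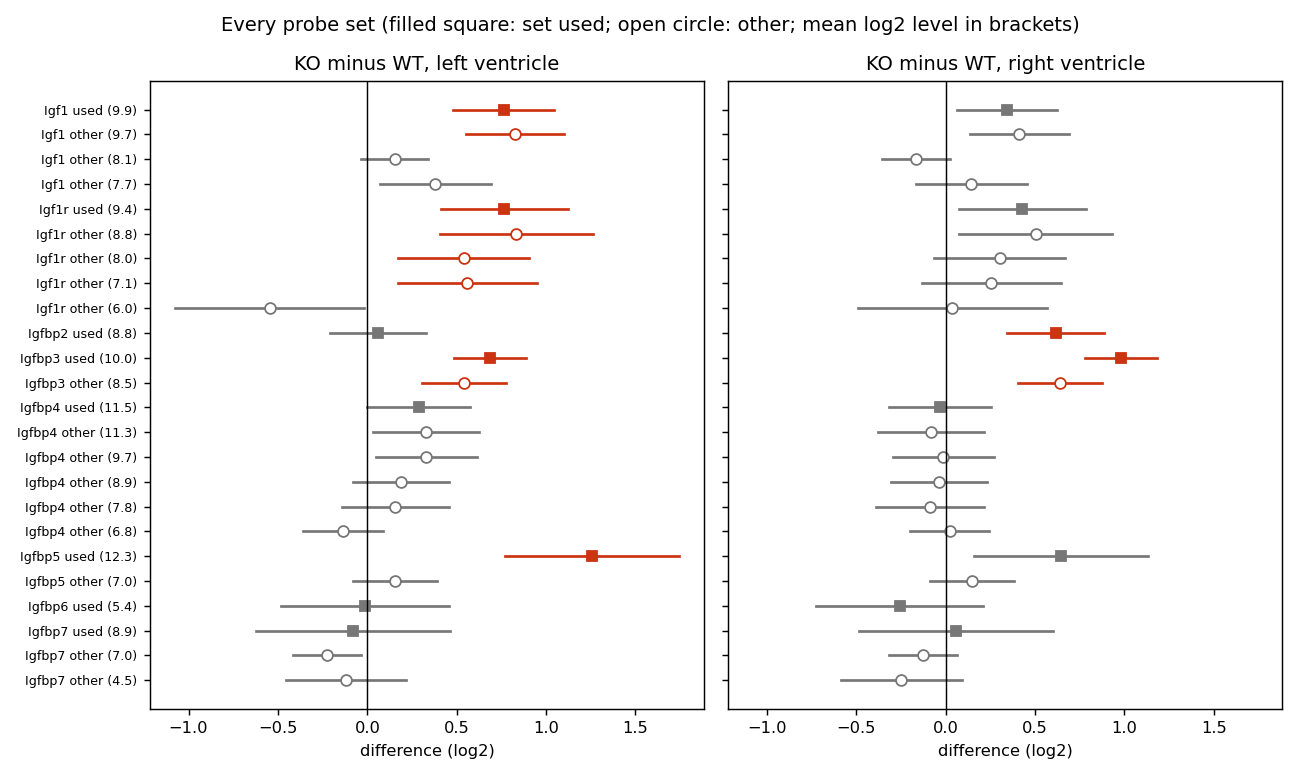
KO minus WT difference in log2 units (horizontal axes) with its 95% interval for all 24 probe sets of the 8 genes in the left and right ventricle. Squares are the sets used, circles the other sets, brackets hold the mean level, and red marks an adjusted p under 0.05. Both Igfbp3 sets are red in both ventricles, and 1 Igf1r set lies on the other side of 0 from the other 4 in the left ventricle.

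Over the 12 arrays, Igf1r and Igfbp5 correlated at r = 0.964, Igf1 and Igfbp5 at 0.927, Igf1 and Igf1r at 0.873 and Igfbp6 and Igfbp7 at 0.776. These describe the same 12 arrays, which share genotype, chamber and poly-A level. Among 8905 genes above the median level, the nearest to Igf1 were Trim35 (r = 0.989), Slc38a1 (0.985) and Arhgef7 (0.985). For Igf1r they were Fzd3 (0.991), Apaf1 (0.984) and Abl2 (0.983), and for Igfbp5 Foxn3 (0.989), Eif3a (0.988) and Top2b (0.988). Igfbp3 was nearest to Tagln (0.979), which encodes the smooth muscle protein transgelin, then to Mboat2 (0.966) and Nts (0.966). Tagln was higher in KO by 1.68 on the left and 2.22 on the right, Nts, which encodes neurotensin, by 1.81 and 2.84, and Mboat2 by 0.50 and 0.70. Igfbp2 was nearest to Rpa2 (0.926), Gtsf1 (0.923) and Spint2 (0.907). The nearest to Igfbp4 were Ripk3 (0.960), Rangap1 (0.940) and Glmp (0.939). Igfbp6, with Cdr2 (0.876), Gstm2 (0.875) and Cmtm7 (0.864), and Igfbp7, with Hint2 (0.885), Cobl (0.876) and Lhpp (0.865), had no neighbour as close as those of Igf1.

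Of 43 other genes of the pathway, 39 were measured. In the KO left ventricle 20 rose, 1 fell and 18 did not pass, with a median difference of 0.28, where 18.6% of all genes rose and 12.3% fell. On the right 0 passed (limma), with 8 higher and 2 lower at an unadjusted p under 0.05 and a median of 0.06. Of all genes, 11.4% were higher and 14.5% lower at that level. Leaving out 1 array at a time moved the left count between 12 and 24, the lowest without KO left replicate 2, and the poly-A term brought it to 0. The left count over all genes ran from 4064 to 6319 without 1 array and was 197 with the term.

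Among ligands and receptors 3 of 8 rose in the left ventricle and 1 fell. Igf2r, the receptor that clears IGF-II, rose from 12.03 ± 0.17 to 13.10 ± 0.16 (SD, n = 3), a difference of 1.07 (limma, adjusted p = 0.00286). Its right ventricle difference was 0.39 (limma, adjusted p = 0.276). A second Igf2r set read 11.17 ± 0.06 in WT and 12.16 ± 0.08 in KO on the left. On the right it read 11.50 ± 0.36 and 12.16 ± 0.08. Insr, the insulin receptor gene, was 0.85 higher on the left (limma, adjusted p = 0.00616) and 0.43 on the right (0.187). Its other sets, dim at means of 5.04 and 4.36, read slightly higher in KO on the left and lower on the right. Igf2, the main fetal ligand gene, differed by 0.21 on the left (limma, adjusted p = 0.0604) and 0.00 on the right (0.987). A second, dimmer Igf2 set read 7.78 ± 0.04 in WT and 8.31 ± 0.17 in KO on the left. On the right this set read 8.10 ± 0.45 and 8.24 ± 0.14.

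Igfbpl1, an IGF binding protein-like gene, was the one that fell on the left, by 0.43 (limma, adjusted p = 0.0249). The same difference on the right, -0.43, did not pass (limma, adjusted p = 0.0623). Igfbp1, a binding protein gene that in adults is made mainly in liver, read -0.43 on the left (limma, adjusted p = 0.228) and -0.22 on the right (0.617) from a dim set. Its highest value, 5.42, was on WT right replicate 1, the array with the highest liver marker mean. Pappa, which encodes the protease PAPP-A, read 0.26 on the left (limma, adjusted p = 0.184) and -0.10 on the right (0.674).

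Downstream, 6 of 8 adaptor genes and 8 of 16 measured genes of the PI3-kinase, Akt and mTOR arm rose in the left ventricle, and none fell, beside rises of 18.6% of all genes. Foxo3, a forkhead factor that Akt keeps out of the nucleus, was 0.86 higher on the left (limma, adjusted p = 0.000613) and 0.31 on the right (0.177). Of 5 proteases and inhibitors 1 rose, the stanniocalcin gene Stc1, by 0.74, named after its value was seen. Both measured genes for IGF-II mRNA-binding proteins rose, Igf2bp1 by 0.85 (limma, adjusted p = 0.00107), with 0.48 on the right (0.0640).

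**Figure D5:**
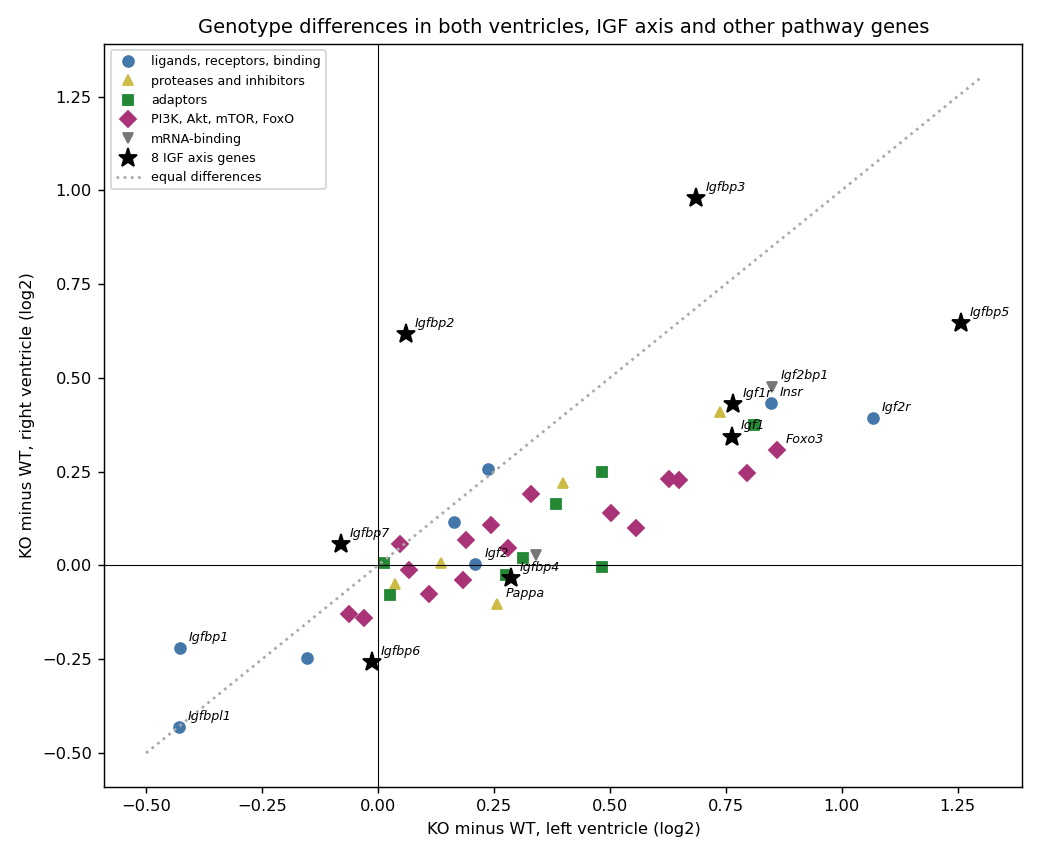
KO minus WT difference in log2 units in the right ventricle (vertical axis) against the left ventricle (horizontal axis) for the 8 genes (stars) and the 39 other pathway genes, marked by role, with a dotted line of equal differences. Igfbp2 and Igfbp3 lie above the line, at 0.06 and 0.69 on the left and 0.62 and 0.98 on the right, while Igfbp5, Igf1, Igf1r and Igf2r lie below it.

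Of the 39 other pathway genes, 0 passed between ventricles in WT, 0 in KO and 0 in the interaction (limma). At an unadjusted p under 0.05 these counts were 9, 5 and 9, where 17.1%, 10.3% and 13.9% of all genes passed.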

How the data were processed

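Affymetrix arrays measured 100 ng of total RNA from pooled ventricles, as the labels' protocols state. The deposited values are log2 levels that the authors made with RMA (per the submitters' processing notes, without a version). RMA gives the arrays one distribution, so a shift shared by most genes can be hidden, and the number of arrays limits precision. Values run from 2.42 to 15.19. Scanner files were not used here. Of the probe sets, 34958 had 1 symbol, 932 several and 9211 none, and only the first named genes. All 8 genes matched RefSeq (GRCm38.p6), the source of promoter sequences.

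The members and gene lists were chosen with earlier results of these data known. Tests used limma 3.58.1 (lmFit, eBayes; R 4.3.3) with a mean for each of 4 groups, no filter, p-values adjusted by Benjamini-Hochberg over 18194 genes and called under 0.05, checked on simulated data. Named were all 8 genes, Nos3, Igf2, Igf2r, Insr, Igfbp1 and Pappa, up to 3 called rises and falls among other pathway genes per genotype comparison, and 3 most correlated genes per member. Marker lists cover cardiomyocyte, endothelial, mesenchymal, epicardial, mural, macrophage, liver and erythroid genes. Python 3.11.15 and matplotlib 3.10.9 drew figures.

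Same-numbered KO ventricles deviated together (r = 0.32, 0.52 and 0.31), whereas WT pairs gave 0.44, -0.02 and 0.16. Different-numbered ventricles of the same genotype gave -0.45 to 0.10, a range that the KO pairs exceeded and the WT pair at -0.02 did not. Same-numbered arrays of different genotypes, which cannot share a pool, gave -0.35 to 0.58. The check therefore does not settle whether the numbers pair the samples. Alternatives covered filtering, normalization, centring, variances, array weights, replicate blocks, the poly-A level (high or low), mean of sets, threshold and leaving out each array.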

Additional observations from a re-analysis of the deposited data

How the results depend on the processing

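Of the 8 called differences of the 8 genes, all kept their direction in all 23 alternatives, which gave 184 values. Several alternatives could not change a direction. They alter only the variance estimate, the replicate block or the threshold, or leave out an array of a group not compared. Of the calls, 4 were lost, each with the poly-A level as a term. The poly-A term left 0 of the 8 genes called in the left genotype comparison, and 1.08% of all genes. With the replicate number as a fixed block, Igfbp5 passed on the right (0.65; limma, adjusted p = 0.0333), and with a random replicate block within genotype (correlation 0.17) Igf1 passed between WT ventricles (0.48; limma, adjusted p = 0.0489), giving 2 genes called there. The replicate block changed no other call of the 8 genes.

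Array weights called 4 genes between WT ventricles (Igf1, Igfbp2, Igfbp4 and Igfbp5) and 2 in the interaction (Igf1 and Igfbp5), where 12.2% and 7.5% of all genes were called. They also called Igfbp4 on the left (0.28; limma, adjusted p = 0.0462) and Igfbp5 on the right (0.43; limma, adjusted p = 0.0466), with 36.2% and 15.7% of all genes. Leaving out 1 array gave 2 to 4 genes in the right genotype comparison, 1 to 4 between WT ventricles and 0 to 3 in the interaction. For the other pathway genes, the left count was 0 with the poly-A term, 11 at a threshold of 0.01 and 12 to 24 without 1 array. The counts over all genes were 197, 3093 and 4064 to 6319. On the right the pathway count was 1 without dim genes, 3 with array weights, 2 with the fixed replicate block, 1 with the mean of sets and 0 to 5 without 1 array. Over all genes these were 1135, 2858, 2009, 1216 and 762 to 1813. Between WT ventricles the pathway count was 1 without dim genes, 8 with array weights, 1 with the random replicate block and 0 to 8 without 1 array. Over all genes these were 163, 2212, 435 and 62 to 1734. Between KO ventricles the pathway count was 2 with array weights, 1 with each replicate block, 1 with the poly-A term and 0 to 1 without 1 array. Over all genes these were 684, 303 (fixed) and 331 (random), 321 and 104 to 321. In the interaction the pathway count was 6 with array weights and 0 to 9 without 1 array, beside 1364 and 2 to 1309 of all genes.

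Of the 32 differences that were not called, 15 turned in sign somewhere. On the left with the poly-A term, Igfbp2 read -0.10, Igfbp4 -0.18, Igfbp6 0.64 and Igfbp7 0.68. Quantile normalization gave -0.037 for Igfbp2 and 0.075 for Igfbp6, median centring 0.08 for Igfbp6 and 0.013 for Igfbp7, and array weights 0.057 for Igfbp6 and 0.055 for Igfbp7. On the right, centring gave 0.0033 for Igfbp4 and the mean of sets -0.11 for Igfbp7. Between WT ventricles the poly-A term gave -0.32 for Igf1r, -0.12 for Igfbp4, -0.22 for Igfbp5, 0.37 for Igfbp6 and 0.49 for Igfbp7. There Igfbp7 read 0.017 with centring and 0.022 with the mean of sets. In the interaction the poly-A term gave 0.14 for Igf1r, 0.057 for Igfbp5 and -0.37 for Igfbp7.

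Leaving out 1 array on the left, Igfbp2 ran from -0.03 to 0.14, Igfbp6 from -0.20 to 0.22 and Igfbp7 from -0.25 to 0.24. On the right Igfbp4 ran from -0.19 to 0.087 and Igfbp7 from -0.075 to 0.31. Between WT ventricles Igfbp6 ran from -0.28 to 0.17 and Igfbp7 from -0.27 to 0.30, and between KO ventricles Igf1 from -0.012 to 0.11. The interaction of Igfbp7 ran from -0.19 to 0.39. Causes were not tested. The fit on only the 2 groups compared was not run for the interaction, which needs 4 groups. Igfbp6, at a mean of 5.39, lies near the dim end of the array, which limits what its values show.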
